A study of Mus musculus with 8 samples.

Results

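The genes described here are 41 interferon-stimulated and antigen presentation genes, chosen by symbol from the 54532 genes of a mouse RNA sequencing table, and all 41 were found in it. They were measured in cardiac fibroblasts sorted for PDGFRα, a growth factor receptor on the fibroblast surface, 7 days after a coronary artery was occluded. The 4 libraries labelled FTbR2KO came from mice with a fibroblast-specific loss of TbR2, the type 2 TGF-β receptor, and the 4 TbR2fl/fl control libraries came from mice that carry the floxed gene. Both groups of mice had been given tamoxifen, and the cells were not cultured. The Cre driver, strain, sex and age are not given in the sources used here. The labels do not say that each library is a separate animal, so p-values measure only the spread between these libraries.

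Interferons are secreted proteins that alarm cells about infection and tissue damage. Type I interferons bind IFNAR1 and IFNAR2, the kinases JAK1 and TYK2 then activate factors that include STAT2, and these join IRF9 on interferon-stimulated response elements (ISRE) in DNA. Interferon gamma binds a separate receptor and acts through gamma-activated sites (GAS). The genes that respond encode sensors of viral RNA, blockers of translation, GTPases that attack intracellular microbes, and the proteasome, transporter and class I molecules that show peptides to T cells. Interferon signalling in the infarcted heart is known mainly from macrophages, and fibroblasts express the same receptors.

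Values are the authors' FPKM, that is, fragments scaled by gene length and by the total of the library. The libraries labelled FTbR2KO held 16088616 to 22928496 reads on genes, against 21200735 to 28731923 reads in the controls. Tgfbr2, the gene that encodes TbR2, measured 60.04, 58.1, 56.9 and 57.8 FPKM in the libraries labelled FTbR2KO 1 to 4, against 49.6, 40.3, 46.7 and 45.4 FPKM in TbR2fl/fl 5 to 8. It was thus higher in all libraries labelled FTbR2KO, the reverse of their label. FPKM of a whole gene does not resolve the loss of a single exon, so every direction here refers to the libraries as labelled. In bulk RNA, fewer cells of a type and less RNA per cell cannot be told apart. FTbR2KO 1 and TbR2fl/fl 5 stood apart from the other 6 libraries, with scores of -24.4 and -20.9 on the first principal component, which held 33.0% of the variance, against -0.108 to 19.0. In the same 2 libraries the total by which the authors had scaled FPKM exceeded the reads assigned to genes by 7.90% and 6.12%, against -3.47% to 0.573% elsewhere.

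The labelled cell type was checked on markers. Pdgfra, the gene of the sorted receptor, measured 85.6, 63.7, 57.1 and 57.1 FPKM in the libraries labelled FTbR2KO and 71.1, 49.2, 64.4 and 45.5 FPKM in the controls. Transcripts of white blood cells, which can carry interferon-stimulated RNA of their own, were scarce. Ptprc, the pan-leukocyte gene CD45, stayed between 0.00717 and 0.0346 FPKM in the libraries labelled FTbR2KO, against 0 to 0.0192 FPKM in the controls. Of 14 macrophage and monocyte markers 9 stayed under 1 FPKM in every library, and their summed level was 8.61 to 12.2 FPKM against 9.15 to 12.6 FPKM in the controls. All 13 lymphocyte markers and all 6 neutrophil markers stayed under 1 FPKM. The neutrophil genes Ly6g, Retnlg and Cxcr2, the dendritic cell genes Flt3, Siglech and Cd209a and the lymphocyte genes Cd3g and Ncr1 were at 0 reads in all 8 libraries. Of 7 dendritic cell markers 6 stayed under 1 FPKM. The other averaged 1.88 FPKM and was higher in every library labelled FTbR2KO than in every control. Its limma adjusted p was 0.595, and groups did not overlap in 4.41% of all tested genes. Of 6 cardiomyocyte markers 4 stayed under 1 FPKM, and the sum over the list was 2.05 to 4.50 FPKM against 3.31 to 4.16 FPKM in the controls. All 10 fibroblast markers were expressed, with a sum of 11141 to 13515 FPKM under the label FTbR2KO, against 12995 to 14542 FPKM in the controls. Of these, 6 lay above 0 and 4 below in log2 fold change, and the collagen genes Col1a1 and Col1a2 were lower in every library labelled FTbR2KO than in every control, with limma adjusted p of 0.571 and 0.581. Markers of mural cells, which wrap vessels, were also present, with 6 of 6 tested above 0, none passing, and a sum of 47.1 to 73.9 FPKM against 47.6 to 63.3 FPKM in the controls. Of 8 endothelial markers 5 stayed under 1 FPKM, while Tek, an angiopoietin receptor, reached 23.3 FPKM in the libraries labelled FTbR2KO and 26.8 FPKM in the controls. The part of these cells in the results that follow was not tested.

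Promoters of 6 members to which the results return are printed here, because the letters that interferon factors recognise are known. Each is the 250 bases before a RefSeq gene start (GRCm38.p6), written 5′ to 3′ on the gene's strand. Capitals mark every match to GAAANNGAAA, the core of the ISRE, or to TTCNNNGAA, the core of the GAS, on either strand. The windows are chr4:156200819-156201068 (minus strand) for Isg15, chr19:34583279-34583528 (plus) for Ifit3 and chr3:142620413-142620662 (plus) for Gbp2. For B2m the window is chr2:122147437-122147686 (plus), for Irf1 chr11:53769764-53770013 (plus) and for Psmb8 chr17:34197945-34198194 (plus).
Isg15: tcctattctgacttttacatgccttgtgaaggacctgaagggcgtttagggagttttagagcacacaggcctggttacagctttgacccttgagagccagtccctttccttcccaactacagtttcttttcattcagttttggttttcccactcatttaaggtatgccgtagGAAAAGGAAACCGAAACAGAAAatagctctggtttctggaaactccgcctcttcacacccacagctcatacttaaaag
Ifit3: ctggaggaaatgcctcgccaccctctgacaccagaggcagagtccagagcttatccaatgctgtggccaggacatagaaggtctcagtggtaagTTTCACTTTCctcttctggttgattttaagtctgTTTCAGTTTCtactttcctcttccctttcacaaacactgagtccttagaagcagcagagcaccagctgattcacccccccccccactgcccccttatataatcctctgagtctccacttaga
Gbp2: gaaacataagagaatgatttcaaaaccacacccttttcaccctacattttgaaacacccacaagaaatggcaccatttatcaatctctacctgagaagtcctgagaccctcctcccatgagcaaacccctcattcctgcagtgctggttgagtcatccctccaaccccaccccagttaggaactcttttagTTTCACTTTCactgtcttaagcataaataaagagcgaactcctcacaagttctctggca
B2m: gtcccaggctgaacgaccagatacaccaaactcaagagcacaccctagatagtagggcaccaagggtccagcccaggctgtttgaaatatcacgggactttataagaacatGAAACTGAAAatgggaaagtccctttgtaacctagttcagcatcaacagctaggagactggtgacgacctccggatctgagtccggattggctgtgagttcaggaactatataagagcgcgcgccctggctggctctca
Irf1: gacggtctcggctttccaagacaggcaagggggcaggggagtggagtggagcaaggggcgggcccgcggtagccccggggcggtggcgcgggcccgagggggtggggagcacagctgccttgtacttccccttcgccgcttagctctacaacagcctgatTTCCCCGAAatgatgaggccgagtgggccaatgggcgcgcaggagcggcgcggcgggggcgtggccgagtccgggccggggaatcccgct
Psmb8: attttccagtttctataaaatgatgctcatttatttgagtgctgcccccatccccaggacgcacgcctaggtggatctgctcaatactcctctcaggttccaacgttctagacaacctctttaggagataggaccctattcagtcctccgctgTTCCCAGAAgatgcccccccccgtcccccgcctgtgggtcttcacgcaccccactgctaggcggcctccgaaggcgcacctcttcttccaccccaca

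Isg15 held 3 overlapping ISRE matches, the nearest with its last base 57 bases before the start, and Ifit3 held 2, ending 147 and 113 bases before it. Gbp2 held 1 at 50 bases and B2m held 1 at 130 bases. Irf1 and Psmb8 held no ISRE match and 1 GAS match each, at 82 and 89 bases. A second RefSeq start of Irf1 has its own window, chr11:53770223-53770472 (plus), which is not printed and held no match to either. The Psmb8 window lies inside the gene of the deposited table, which starts at 34197721. In that table Gbp2 starts at 142620602, within its window, and the ISRE match lies just inside the gene. The B2m window ends on the first base of its gene. The RefSeq table held 32 of the 41 members, and Zbp1, Mx1, Mx2, Usp18, Parp9, Parp14, Iigp1, Ifi27 and Rtp4 were not matched. An ISRE match was found for 12 of the 32 genes (37.5%), against 936 of 27025 genes in the table (3.46%), and a GAS match for 8 (25.0%) against 2197 (8.13%). All 5 matched GTPase genes held an ISRE, whereas among the 6 antigen processing and class I genes only B2m did. These are matches of letters and say nothing of binding, and genes without a match may carry the element in another spelling or elsewhere. The windows of Tap1 and Psmb9, which run in opposite directions, shared 225 of their 250 bases.

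Interferon itself was not detected in the sorted cells. Of 10 interferon genes, among them Ifnb1, Ifng and 4 interferon alpha genes, 9 had 0 reads in all 8 libraries and Ifnk had 1 read in TbR2fl/fl 5. A count of 0 allows up to 3 reads per library, equal to 0.136 to 0.230 FPKM for Ifnb1 and 0.0789 to 0.133 FPKM for Ifng, by counting error alone. The member genes were present in every library, from a mean of 0.813 FPKM over the 8 libraries for Mx1 to 602 FPKM for B2m. All 8 libraries are from 7 days after occlusion, so these levels do not show whether interferon had acted.

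The genotype comparison asks whether these genes differ between the libraries labelled FTbR2KO and the controls. No member passed the test. Of the 40 members tested, that is, with at least 1 FPKM in at least 4 libraries, 0 passed an adjusted p of 0.05 in limma, a linear model fitted across all genes on log2(FPKM + 1). Over all 11667 tested genes 2 passed, or 0.0171%. At an unadjusted p under 0.05 there was 1 member, Psmb8, and 8.61% of all genes. With weights for library quality there were 6 members and 2206 of the 11667 genes. With a library left out there were 0 to 3 members, and 490 to 1496 of all tested genes. The 3 members were found without FTbR2KO 3, where 678 of 11555 genes were under 0.05. In no member did the 4 libraries labelled FTbR2KO lie wholly above or below the 4 controls, while 4.41% of all tested genes separated in that way. Limma with voom weights on recovered reads also called 0 members, with 1 member and 966 of the 11667 genes at an unadjusted p under 0.05.

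The size of difference that the data leave room for can be read from the intervals. The log2 fold changes of the 40 genes ran from -0.39 to 0.25, with standard errors of 0.063 to 0.26. On the log2(FPKM + 1) scale, all 40 confidence intervals (95%, for each gene alone) lay within 1 in either direction, and 23 lay within 0.5. This scale understates changes of low genes, such as Ifi44 with a mean of 1.03 FPKM. For low genes the data leave room for larger changes than these bounds. The median was 0.070, against -0.0045 over all tested genes, and 25 lay above 0 and 15 below, against 5694 and 5973 of all genes. The median was -0.0059 without TbR2fl/fl 8, with 18 of 40 genes above 0, and 0.0054 without FTbR2KO 1, with 21 of 39 above 0.

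**Figure D1:**
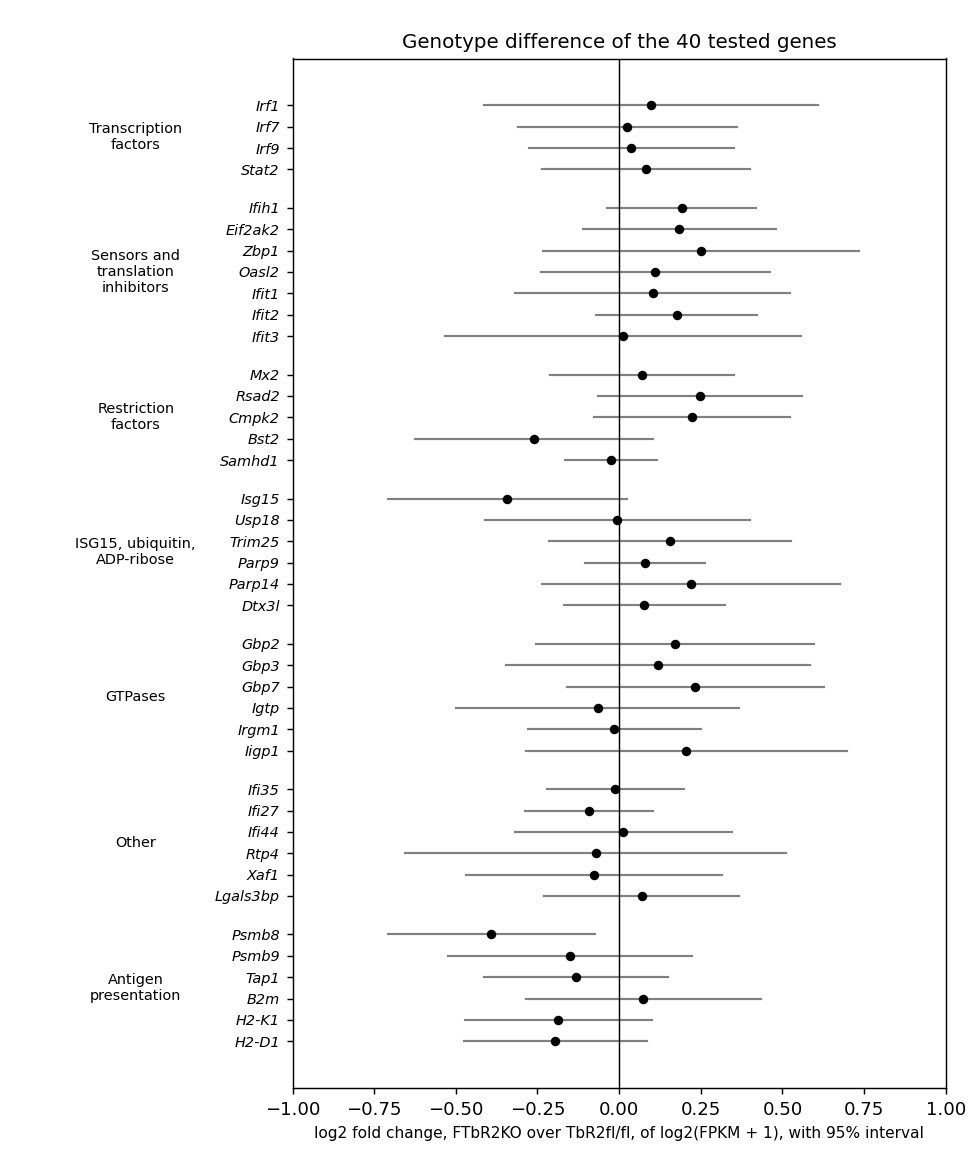
Log2 fold change of each of the 40 tested genes, FTbR2KO over TbR2fl/fl on the log2(FPKM + 1) scale (x axis), with lines for the 95% confidence interval of each gene (n = 4 libraries a group) and genes grouped by role. The points run from -0.39 to 0.25, and Psmb8 is the only gene whose interval does not reach 0, with an unadjusted p of 0.0212 and an adjusted p of 0.571.

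Among the transcription factors that carry the interferon signal, all 4 were expressed. Irf1, a factor induced early by interferon, measured 32.2, 32.6, 30.7 and 23.7 FPKM in the libraries labelled FTbR2KO, against 18.6, 37.3, 37.2 and 22.2 FPKM in the controls. The controls fell into a high and a low pair that enclosed every library labelled FTbR2KO. Stat2, the STAT that works with IRF9, measured 12.01, 9.604, 8.505 and 8.19 FPKM in the libraries labelled FTbR2KO and 10.7, 7.66, 9.94 and 7.65 FPKM in the controls. The log2 fold change was 0.10 (SE 0.23) for Irf1 and 0.083 (SE 0.14) for Stat2, with limma adjusted p of 0.923 and 0.886. Irf7, the factor that amplifies type I interferon, averaged 10.03 ± 1.58 against 9.89 ± 1.89 FPKM in the controls (mean ± SD, n = 4 each), and Irf9 averaged 7.53 ± 1.61 against 7.25 ± 1.01 FPKM.

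The sensors and translation inhibitors all had positive log2 fold changes, from 0.011 to 0.25, and none passed (limma adjusted p from 0.611 upward). The lowest, Ifit3, was -0.15 without FTbR2KO 1 and also below 0 without FTbR2KO 2, TbR2fl/fl 6 or TbR2fl/fl 8. Ifih1, which encodes the RNA sensor MDA5, measured 4.84, 4.72, 3.61 and 3.76 FPKM in the libraries labelled FTbR2KO, against 3.75, 3.25, 3.97 and 3.28 FPKM in the controls. FTbR2KO 1 and 2 lay above every control and the other libraries overlapped (log2 fold change 0.19, SE 0.10). Ifit2, a protein that restrains translation of viral RNA, measured 9.29, 8.37, 6.34 and 7.87 FPKM in the libraries labelled FTbR2KO and 7.57, 6.19, 6.71 and 7.103 FPKM in the controls (log2 fold change 0.18, SE 0.11). Ifit3, its partner and the most abundant of the group, measured 28.03, 20.4, 13.4 and 20.2 FPKM, against 26.2, 15.05, 24.7 and 15.5 FPKM in the controls. High and low libraries occurred under both labels, and the means were 20.5 ± 5.97 against 20.4 ± 5.91 FPKM.

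Ifit1, Ifit2 and Ifit3 lie in one cluster on chromosome 19 (34550694 to 34650009), with Ifit1bl1 and Ifit3b between Ifit3 and Ifit1, and reads of Ifit3 may be shared with its near copy Ifit3b, which averaged 4.76 ± 1.84 against 5.01 ± 1.61 FPKM. Ifit1 averaged 7.41 ± 1.72 against 6.85 ± 1.76 FPKM. Eif2ak2, the RNA-activated kinase PKR that shuts down translation, averaged 7.65 ± 1.35 against 6.59 ± 1.03 FPKM, and Oasl2, a relative of the oligoadenylate synthetases, 8.97 ± 1.801 against 8.23 ± 1.68 FPKM. Zbp1, a sensor of Z-form nucleic acid that can start cell death, averaged 3.002 ± 1.06 against 2.32 ± 0.751 FPKM, with a 95% interval of the log2 fold change from -0.23 to 0.73, the highest upper bound of any member.

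Bst2, the tetherin that holds virus particles at the cell surface, measured 82.4, 78.1, 54.7 and 76.1 FPKM in the libraries labelled FTbR2KO, against 81.1, 83.1, 110.3 and 74.8 FPKM in the controls. FTbR2KO 3 was the lowest and TbR2fl/fl 7 the highest library (log2 fold change -0.26, SE 0.16, limma adjusted p = 0.656). Its log2 fold change was -0.13 without FTbR2KO 3 and -0.14 without TbR2fl/fl 7. Rsad2, the antiviral enzyme viperin, measured 2.21, 2.95, 1.79 and 2.08 FPKM in the libraries labelled FTbR2KO and 2.301, 1.51, 1.79 and 1.35 FPKM in the controls. Cmpk2, a nucleotide kinase whose gene adjoins Rsad2 on chromosome 12, measured 3.64, 3.65, 2.33 and 2.92 FPKM, against 2.91, 2.17, 2.93 and 2.13 FPKM in the controls. The log2 fold changes of this pair were 0.25 (SE 0.14) and 0.22 (SE 0.13), and neither passed (limma adjusted p = 0.628 and 0.648). For Rsad2 the log2 fold change was 0.15 without FTbR2KO 2, 0.39 with voom and 0.47 after conversion to TPM, and for Cmpk2 it was 0.42 after that conversion.

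Samhd1, which depletes nucleotides that reverse transcription needs, was the steadiest member: it averaged 5.68 ± 0.301 against 5.797 ± 0.128 FPKM, and its highest library was 1.13-fold its lowest. Mx2 averaged 1.87 ± 0.335 against 1.74 ± 0.377 FPKM. Mx1, like Mx2 from a family of GTPases that block virus replication, was the only member under the filter and was not tested. It measured 0.791, 0.699, 0.922 and 0.971 FPKM in the libraries labelled FTbR2KO and 1.17, 0.542, 0.852 and 0.557 FPKM in the controls.

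Isg15, a ubiquitin-like protein that is attached to other proteins, had the lowest log2 fold change outside antigen presentation. It measured 28.6, 28.01, 20.95 and 27.7 FPKM in the libraries labelled FTbR2KO, against 31.6, 32.7, 44.9 and 26.7 FPKM in the controls. Only TbR2fl/fl 8 fell among the libraries labelled FTbR2KO, and the difference did not pass (log2 fold change -0.34, SE 0.16, limma adjusted p = 0.591). Usp18, the protease that removes ISG15 and damps the receptor, averaged 3.54 ± 1.24 against 3.47 ± 0.578 FPKM, and Trim25, a ubiquitin ligase of the RIG-I pathway, 8.44 ± 1.55 against 7.53 ± 1.801 FPKM.

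Parp14, an ADP-ribosyltransferase, measured 6.49, 3.98, 4.05 and 3.17 FPKM in the libraries labelled FTbR2KO and 5.27, 2.95, 3.45 and 2.86 FPKM in the controls. The highest value of each group was in FTbR2KO 1 and TbR2fl/fl 5 (log2 fold change 0.22, SE 0.20). Parp9 and its partner ubiquitin ligase Dtx3l averaged 5.77 ± 0.582 against 5.399 ± 0.344 FPKM and 3.897 ± 0.268 against 3.68 ± 0.746 FPKM. Their genes run in opposite directions on chromosome 16 and share 458 exon bases, and since strand-specific counting is not stated in the sources used here, reads there cannot be told apart.

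Of the interferon-inducible GTPases, which coat and break open the vacuoles of intracellular microbes, 4 had positive and 2 negative log2 fold changes. Gbp2, the most abundant, measured 26.7, 19.6, 16.6 and 15.00 FPKM in the libraries labelled FTbR2KO, against 21.4, 14.2, 18.3 and 14.2 FPKM in the controls (log2 fold change 0.17, SE 0.19). Gbp7 measured 6.44, 6.12, 3.78 and 4.61 FPKM in the libraries labelled FTbR2KO and 5.42, 3.42, 4.92 and 3.42 FPKM in the controls (0.23, SE 0.17). Iigp1 measured 15.1, 11.3, 8.61 and 7.29 FPKM, against 12.2, 7.097, 8.45 and 7.79 FPKM in the controls (0.21, SE 0.22).

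In all 3 the top of each group was FTbR2KO 1 and TbR2fl/fl 5, and limma's adjusted p was 0.721 to 0.805. Without FTbR2KO 1 the log2 fold change was 0.016 for Gbp2, 0.032 for Iigp1 and 0.14 for Gbp7, and that of Parp14 was 0.052. Gbp2, Gbp3 and Gbp7 lie within 142530342 to 142638008 of chromosome 3 and resemble each other, so reads may be split between them. Gbp3 averaged 9.39 ± 2.77 against 8.498 ± 2.07 FPKM. The immunity-related GTPases Igtp and Irgm1 averaged 7.53 ± 2.11 against 7.86 ± 1.83 FPKM and 6.14 ± 0.848 against 6.22 ± 0.943 FPKM, and Igtp shares 162 exon bases with its neighbour Irgm2.

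Lgals3bp, a secreted glycoprotein that binds galectin 3, was the most abundant of the remaining interferon-induced genes. It measured 110.1, 117, 87.9 and 87.6 FPKM in the libraries labelled FTbR2KO, against 97.5, 97.1, 106 and 80.8 FPKM in the controls (log2 fold change 0.069, SE 0.13). Ifi27 measured 43.6, 37.3, 37.5 and 39.98 FPKM in the libraries labelled FTbR2KO and 41.3, 39.00, 44.97 and 43.7 FPKM in the controls (-0.092, SE 0.087). Both groups overlapped throughout, and reads of Ifi27 may be shared with its relative Ifi27l2a. Ifi35 averaged 8.502 ± 0.766 against 8.59 ± 0.892 FPKM and Xaf1, a partner of apoptosis inhibitors, 3.496 ± 0.997 against 3.72 ± 0.874 FPKM. Ifi44 was near the filter at 1.03 ± 0.2699 against 1.02 ± 0.321 FPKM. Rtp4 varied 2.28-fold between its highest and lowest library, at 10.3, 6.37, 4.56 and 4.498 FPKM in the libraries labelled FTbR2KO and 8.52, 5.03, 8.39 and 4.75 FPKM in the controls.

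**Figure D2:**
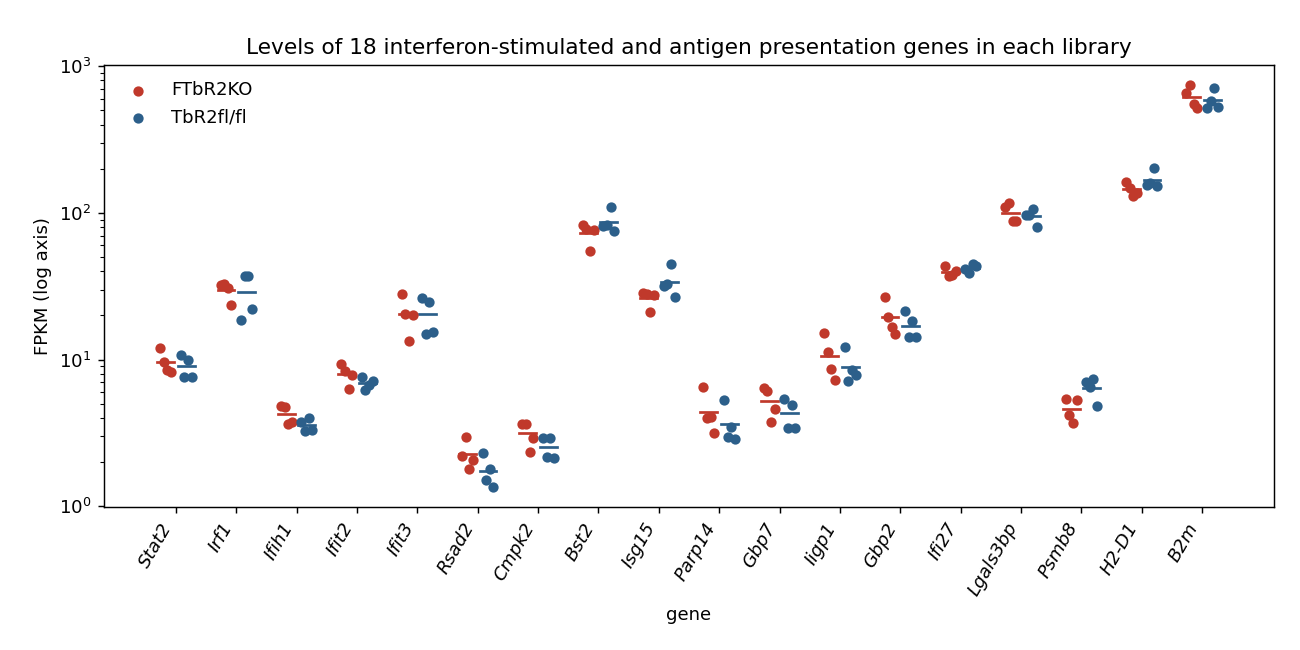
FPKM (log axis) of the 18 genes given library by library for their low p or high level, in the 4 libraries labelled FTbR2KO (red, left) and the 4 TbR2fl/fl controls (blue, right), with a bar at each group mean. Levels run from 1.35 FPKM for Rsad2 in TbR2fl/fl 8 to 744 FPKM for B2m in FTbR2KO 2, and the groups overlap for every gene.

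Class I molecules were the most abundant members. B2m, the light chain of every class I molecule, measured 662, 744, 549 and 519 FPKM in the libraries labelled FTbR2KO, against 523, 577, 715 and 530.0 FPKM in the controls (log2 fold change 0.073, SE 0.16). H2-D1, a classical heavy chain, measured 163, 149, 131 and 137 FPKM in the libraries labelled FTbR2KO and 154, 159.6, 202 and 152 FPKM in the controls (-0.20, SE 0.12, limma adjusted p = 0.667). The log2 fold change of B2m was -0.021 without FTbR2KO 2, and that of H2-D1 was -0.10 without TbR2fl/fl 7. The other classical heavy chain, H2-K1, averaged 109 ± 14.2 against 124 ± 15.2 FPKM; class I genes resemble each other and may share reads.

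Psmb9, Tap1 and Psmb8, which supply peptides, sit together on chromosome 17 between 34181988 and 34201454, and they and both heavy chains had negative log2 fold changes. Psmb8, the inducible proteasome subunit LMP7, measured 5.35, 4.19, 3.68 and 5.33 FPKM in the libraries labelled FTbR2KO, against 6.99, 6.45, 7.36 and 4.79 FPKM in the controls. TbR2fl/fl 8 lay within the range of the libraries labelled FTbR2KO and the other 3 controls above all of them (log2 fold change -0.39, SE 0.14, limma adjusted p = 0.571, exact permutation p = 0.0857). An antisense gene, Gm20496, covers 498 exon bases of Psmb8 and held at most 0.260 FPKM. Since strand-specific counting is not stated, reads there cannot be told apart, and that value does not show how they were counted. Psmb9, the subunit LMP2, averaged 1.74 ± 0.717 against 1.98 ± 0.185 FPKM, and Tap1, which carries peptides into the endoplasmic reticulum, 6.71 ± 1.097 against 7.42 ± 0.964 FPKM; the pair shares 212 exon bases on opposite strands.

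Each inducible proteasome subunit takes the place of a constitutive one, so their FPKM ratio within a library was used for the balance at the RNA level. The level of a ratio depends on the gene lengths by which FPKM was scaled, 2736 bases for Psmb8 and 3659 for Psmb9. Its difference between libraries does not depend on them. A ratio also moves with its denominator. The summed level of the 7 constitutive subunits was 152 FPKM in FTbR2KO 1 and 161 FPKM in TbR2fl/fl 5, against 191 to 250 FPKM elsewhere. How far either term sets the ratios was not tested. Psmb8 over Psmb5 was 0.179, 0.105, 0.0907 and 0.123 in the libraries labelled FTbR2KO, against 0.229, 0.138, 0.180 and 0.0884 in the controls. For Psmb9 over Psmb6 the ratios were 0.138, 0.0662, 0.0365 and 0.0484 in the libraries labelled FTbR2KO and 0.0927, 0.0505, 0.0683 and 0.0517 in the controls. In FPKM both inducible subunits were thus well below their constitutive counterparts in every library. Psmb10 over Psmb7 ranged over 1.18 to 1.97 under the label FTbR2KO, against 1.25 to 1.77 in the controls. The third inducible subunit was thus above its counterpart in FPKM. The log2 ratios differed by -0.32, -0.0066 and -0.0051 between the groups, and that of Psmb8 over Psmb5 was -0.57 without TbR2fl/fl 8, -0.51 without FTbR2KO 1, -0.18 without FTbR2KO 3 and -0.11 without TbR2fl/fl 5. The exact two-sided permutation p was 0.429, 1 and 1, with every adjusted p over the 3 ratios at 1, and the smallest p this design allows is 0.0286.

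**Figure D3:**
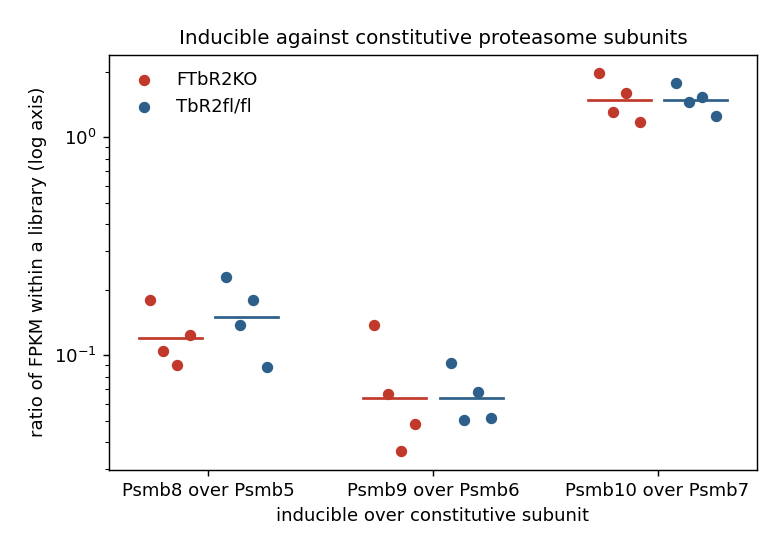
Ratio of FPKM (log axis) of each inducible proteasome subunit over the constitutive subunit it replaces, within each library labelled FTbR2KO (red, left) and each TbR2fl/fl control (blue, right), with bars at the geometric mean. Psmb8 and Psmb9 lie below 1 and Psmb10 above 1 in all 8 libraries, and the groups overlap for all 3 ratios.

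The spread between libraries of one label was wide for these genes. The within-group SD of the tested members had a median of 0.23 on the log2(FPKM + 1) scale, against 0.16 for all tested genes, and the highest library was a median of 1.71-fold the lowest, against 1.49-fold. Among the 40 tested members 20 were highest in FTbR2KO 1, 10 in TbR2fl/fl 7, 5 in FTbR2KO 2 and 4 in TbR2fl/fl 5. The lowest value fell in FTbR2KO 3 for 12 members and in TbR2fl/fl 8 for another 12. Of all tested genes, 13.1% were highest in FTbR2KO 1, 13.7% in TbR2fl/fl 7, 15.1% in FTbR2KO 2 and 13.3% in TbR2fl/fl 5. The lowest value of all tested genes fell in FTbR2KO 3 for 11.4% and in TbR2fl/fl 8 for 13.6%. It fell in FTbR2KO 1 for 18.7% and in TbR2fl/fl 5 for 20.1%.

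The library with the highest value was counted by role, with no test. All 7 sensors and translation inhibitors and all 6 GTPases were highest in FTbR2KO 1 or TbR2fl/fl 5, with GTPases a median of 0.46 and 0.24 above their own means (log2) in these libraries. Of the 6 antigen presentation genes 4 were highest in TbR2fl/fl 7, a median of 0.30 above their means, and 5 were lowest in FTbR2KO 3, a median of 0.34 below; they too lay a median of 0.11 above their means in FTbR2KO 1 and in TbR2fl/fl 5. The other roles were mixed, with 2 of 4 transcription factors, 1 of 5 restriction factors and 2 of 6 remaining interferon-induced genes highest in that pair, and 5 of 6 genes of the ISG15 group. Isg15 and Bst2, like most antigen presentation genes, were highest in TbR2fl/fl 7 and lowest in FTbR2KO 3. FTbR2KO 1 and TbR2fl/fl 5 are the pair that stood apart over all genes, and their titles carry the lowest running codes of the 8; no source used here explains these codes. A macrophage marker sum of 11.6 and 11.1 FPKM in FTbR2KO 1 and TbR2fl/fl 5 lay within the 8.61 to 12.6 FPKM of the other libraries. Cd68, a lysosomal macrophage gene that other cells also express, is 1 of the 14 markers in that sum and was picked after values were seen. It measured 7.15 and 5.36 FPKM in FTbR2KO 1 and TbR2fl/fl 5, against 2.01 to 5.27 FPKM elsewhere. The sum over the list did not set these libraries apart. The part of these values in the shared deviations was not tested. Without both libraries 0 of 39 members passed in limma, with 20 above 0 and a median log2 fold change of 0.0058.

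**Figure D4:**
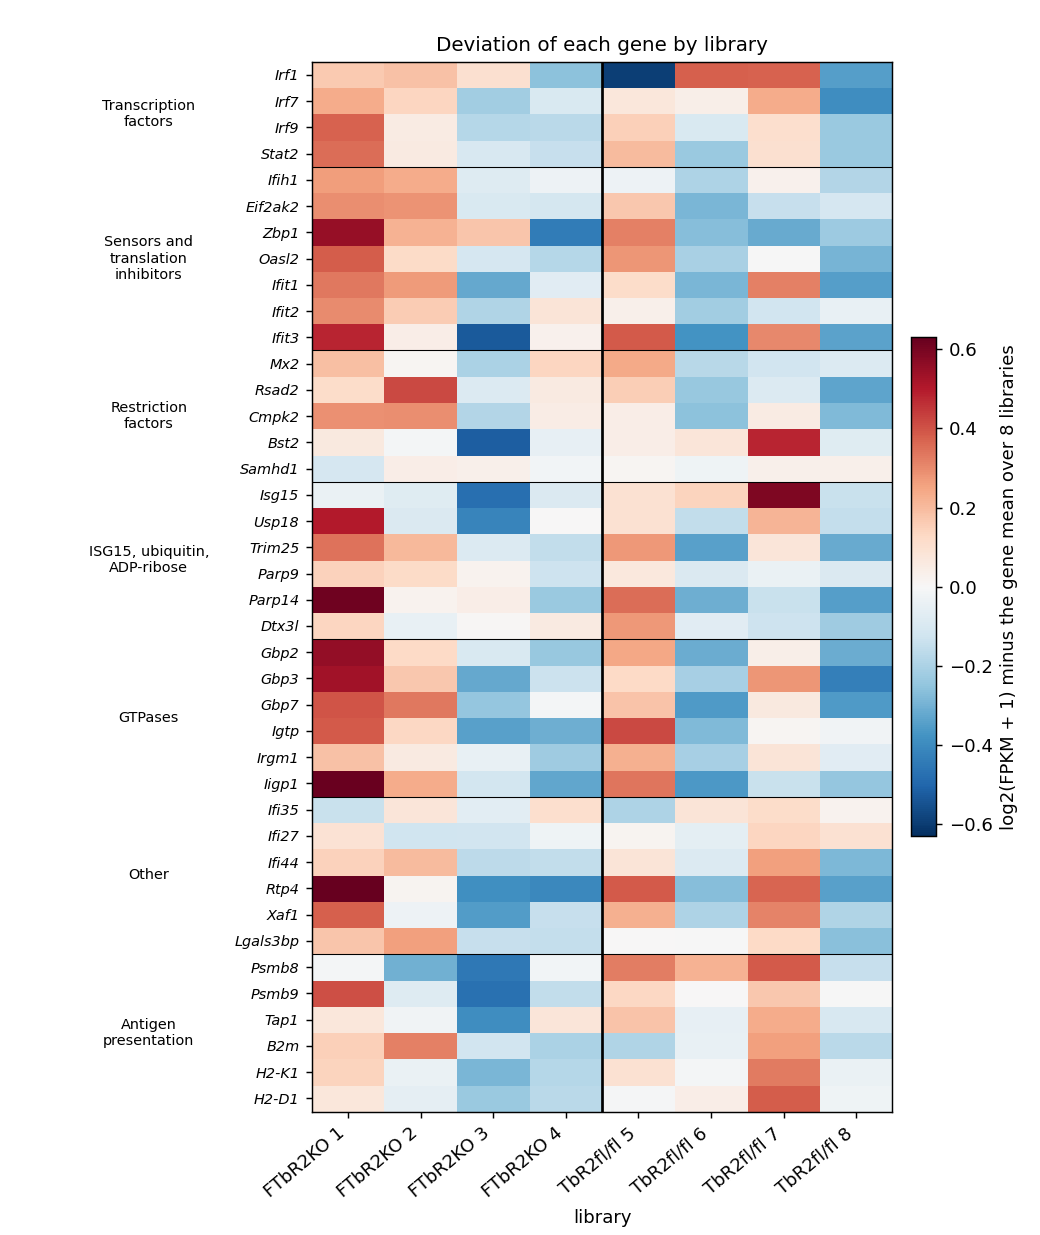
Log2(FPKM + 1) of each tested gene (rows, grouped by role) minus its mean over the 8 libraries (columns, FTbR2KO left of the line and TbR2fl/fl right of it), red above and blue below the mean. FTbR2KO 1 is above the mean for 36 of 40 genes and TbR2fl/fl 5 for 35, whereas TbR2fl/fl 8 is above it for 3 and FTbR2KO 3 for 6.

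The rest of the pathway gave the same count: of 90 tested genes on 7 lists of ligands, signalling genes, sensors and related effectors, 0 passed in limma, 6 were at an unadjusted p under 0.05, against 8.61% of all tested genes, and 0 passed with voom. All 16 receptor, kinase and regulator genes were tested, 9 above 0 and 7 below. Ifnar1 averaged 16.2 ± 1.34 against 14.7 ± 0.613 FPKM and Ifngr1, a receptor chain for interferon gamma, 45.5 ± 1.87 against 46.8 ± 4.99 FPKM. By smallest p in this list, Irf2, a repressor of the IRF family, was at 0.21 (log2 fold change, SE 0.086) and Irf3, which switches on interferon genes, at -0.22 (SE 0.090). Limma's adjusted p was 0.571 for both.

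Nucleic acid sensing genes had the largest single difference, with 10 of 10 tested genes above 0. Ifi204, a DNA-binding protein of the interferon-inducible p200 family, measured 14.3, 9.37, 13.2 and 9.71 FPKM in the libraries labelled FTbR2KO, against 8.19, 5.66, 5.02 and 8.45 FPKM in the controls. Every library labelled FTbR2KO lay above every control, and the groups did not overlap in 4 of the 90 tested pathway genes, against 4.41% of all tested genes. Limma's adjusted p was 0.571 (log2 fold change 0.70, SE 0.18), and the related genes of its cluster may share reads. Tlr3, the endosomal receptor for double-stranded RNA, separated likewise at 4.88, 4.797, 3.87 and 3.82 FPKM in the libraries labelled FTbR2KO and 3.71, 3.25, 3.397 and 3.48 FPKM in the controls (0.26, SE 0.088, adjusted p = 0.571).

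Other interferon-stimulated genes showed no called difference in 39 tested of 51, with 28 above 0, 11 below and a median of 0.071. Oasl1 and Helz2, a helicase, had the smallest p of that list, with log2 fold changes of 0.19 (SE 0.10) and 0.26 (SE 0.13). Of 16 tested class I and processing genes outside the members 5 lay above 0 and 11 below (median -0.11). Psmb10 measured 14.8, 12.3, 15.3 and 13.8 FPKM in the libraries labelled FTbR2KO and 15.2, 17.2, 17.6 and 15.1 FPKM in the controls (-0.20, SE 0.091), and Erap1, which trims peptides for class I, showed a log2 fold change of 0.13 (SE 0.065). Constitutive proteasome subunits lay below 0 in 6 of 7, with -0.25 (SE 0.18) for Psmb6 and -0.15 (SE 0.11) for Psmb1. Class II genes, which present antigen to helper T cells, were scarce: 2 of 7 could be tested, their sum was 3.05 to 6.72 FPKM against 4.31 to 6.50 FPKM in the controls, and H2-Eb1 averaged 0.874 ± 0.2703 against 1.29 ± 0.168 FPKM (adjusted p = 0.576). Cd74, the class II invariant chain, averaged 1.37 ± 0.955 against 1.25 ± 0.436 FPKM.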

How the data were processed

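Poly(A) RNA libraries of sorted cardiac fibroblasts were sequenced, and the deposited table holds FPKM per gene, used as the authors made it. Tools and builds listed in the submitters' processing notes, without saying what each did, are HTSeq 0.6.1, TopHat2 2.0, CASAVA and Cufflinks 2.1.1, and GRCm38.p6 beside mm10. FPKM times gene length was a whole multiple of 1 step per library (100% of nonzero values within 0.01), which gave the reads and depths. Genes with at least 1 FPKM in at least 4 of 8 libraries were tested on log2(FPKM + 1), which understates changes of low genes, with limma 3.58.1 in R 4.3.3 (trended variance, no covariate, two-sided, Benjamini-Hochberg over all tested genes, threshold 0.05), checked on simulated data. Members, lists, roles and alternatives were chosen with earlier results of these data known. Values of every library are given for the 2 members of each role with the smallest p and the most abundant one, and of each further list the 2 genes with the smallest p are named. Tgfbr2, Ptprc and Pdgfra are given whatever their values, and Rtp4, Mx1, Cd68, Ifnar1, Ifngr1 and near copies of members were added after values were seen. Strand-specific counting is not stated in the sources used here. Alternatives changed the pseudocount, filter, scaling and weights, left out libraries, and used voom on the recovered reads. Gene coordinates are those of the deposited table, the same as in GENCODE M21 for 38 of 41 members, and exon overlaps come from that annotation. Promoters are RefSeq's (GRCm38.p6).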

Additional observations from a re-analysis of the deposited data

Results flagged for a closer look

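Among 42 sets of 4 values examined, 2 held a library far from the other 3, and chance gives about 1 in 20. Isg15 measured 20.95 FPKM in FTbR2KO 3, against 27.7 to 28.6 FPKM in the other libraries of that label, and without it the log2 fold change was -0.24 in place of -0.34 (-0.20 without TbR2fl/fl 7). H2-D1 measured 202 FPKM in TbR2fl/fl 7, against 152 to 160 FPKM in the other controls, and without it the log2 fold change was -0.10 in place of -0.20.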

How the results depend on the processing

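No member and no gene of the further pathway lists passed limma's threshold under any of the 17 alternatives, and the smallest adjusted p of the 18 named members was 0.172 (Psmb8, array weights). Of their 301 alternative log2 fold changes 15 had the opposite sign, and 12 genes kept their sign throughout. Over all genes 2 were called; the count was 1 with the stricter filter (5 FPKM), 0 without FTbR2KO 1 and TbR2fl/fl 5 together, and 1 to 6 when each library was left out. The signs that turned belonged to values near 0. Ifi27 was 0.073 after conversion to TPM, which moved the median of all genes to 0.15 and put 35 of 41 members above 0 with a median of 0.23. Irf1 was -0.086 with array weights and -0.12 without both libraries, where Ifit3 was -0.017 and B2m -0.015. Leaving out each library gave -0.021 to 0.16 for Stat2, -0.15 to 0.19 for Ifit3, -0.0078 to 0.13 for Lgals3bp, -0.021 to 0.17 for B2m and -0.084 to 0.24 for Irf1. The log2 ratio difference of Psmb9 over Psmb6 was 0.098 with a pseudocount of 1 and -0.38 to 0.26 over left-out libraries, that of Psmb10 over Psmb7 -0.14 to 0.11 and that of Psmb8 over Psmb5 -0.57 to -0.11. The median of the members ran from -0.0059 to 0.11 over left-out libraries. The cause of these changes was not tested. Voom on recovered reads was chosen after seeing the data. No paired analysis was possible because the titles number all 8 libraries differently, and no source used here says whether their running codes mark a shared day or batch. With 4 libraries a group, differences could go uncalled, and the intervals given do not mark the smallest difference that could pass. For Psmb8 the interval, -0.71 to -0.073, did not reach 0, while limma's adjusted p was 0.571.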

Other observations

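The groups of 4 further genes of the pathway lists, chosen after their values were seen, did not overlap. With Ifi204 and Tlr3, 4 of the 90 tested pathway genes separated, near the 4.41% of all tested genes that did. Irf5 and H2-T22 were tested and did not pass in limma. Irf5 measured 3.31, 2.56, 3.01 and 3.42 FPKM in the libraries labelled FTbR2KO and 3.43, 3.80, 3.82 and 3.62 FPKM in the controls. H2-T22, a class I relative, measured 17.4 to 19.0 FPKM against 19.3 to 21.1 FPKM in the controls. Under the filter, Mb21d1, which encodes the DNA sensor cGAS, measured 0.870 to 1.12 FPKM against 0.594 to 0.866 FPKM, and Ccl5, a chemokine, 0.420 to 0.638 FPKM against 0.662 to 1.14 FPKM from 7 to 32 reads per library. Trex1, which degrades stray DNA, is listed at 0 in all 8 libraries.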
